A study of Mus musculus with 764 samples.

Results

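The 8 genes described here encode receptors first studied on natural killer (NK) cells and adaptors that carry their signals: Klrc1, Klrd1, Klrk1, Klre1, Klrg1, Cd160, Fcer1g and Tyrobp. They were taken by name from 23997 gene rows, and all 8 were present. Their transcripts were followed in single IL-10-producing CD4+ T cells, whose libraries were made by SMART-seq2, a method that reads whole transcripts and uses no molecular identifiers. The cells came from the small intestine or the spleen of mice with an eGFP reporter for Il10 and an mRFP reporter for the regulatory T cell factor Foxp3. All mice had received injections of an activating antibody to CD3 (anti-CD3), so no untreated cells are compared. The sort took eGFP+ CD4+ cells, Foxp3+ cells included, from age- and sex-matched littermates. The sources used here do not say which gut fraction (intraepithelial or lamina propria) was sequenced, and no label ties a cell to an animal. After cells with few reads or genes and cells called S or G2M had been removed, 72.1% of the 190 small intestine cells remained, and 400 spleen cells (69.7%). The spleen cells filled 3 well sets: columns 1 to 12 of plate p1, columns 13 to 24 of p1, and p2, the plate that also held the small intestine cells.

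NK receptors are activating or inhibitory, and the balance of their signals sets whether a cell kills or releases cytokines. Klrd1 encodes CD94, which pairs with NKG2A, the product of Klrc1, as an inhibitory receptor for the class I molecule Qa-1. Klrk1 encodes NKG2D, an activating receptor for stress-induced ligands that signals through the adaptors DAP10 (Hcst) and DAP12 (Tyrobp). Klre1 encodes a further lectin-like NK receptor. Klrg1 encodes an inhibitory receptor for cadherins that marks late effector cells and some regulatory T cells, and Cd160 a receptor for HVEM (Tnfrsf14). Fcer1g and Tyrobp are adaptors abundant in myeloid and NK cells. Several of these receptors are also known on cytotoxic T cells and on intraepithelial lymphocytes of the gut, whose CD4+ members can carry CD8 alpha (Cd8a).

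Promoters are shown for Cd160, the most widespread of the 8 genes here, for Klrc1, and for the partner gene Gzma (granzyme A, a protease of cytotoxic granules), since letters of the same kind occurred in all of them. Each run is the 250 bases before a RefSeq transcription start in GRCm38.p6, written 5′ to 3′ on the strand of the gene. Capitals mark the RUNX core TGTGGT and the T-box letters GGTGTGA, searched on both strands.
Cd160, first start, chr3:96829352-96829601, minus strand: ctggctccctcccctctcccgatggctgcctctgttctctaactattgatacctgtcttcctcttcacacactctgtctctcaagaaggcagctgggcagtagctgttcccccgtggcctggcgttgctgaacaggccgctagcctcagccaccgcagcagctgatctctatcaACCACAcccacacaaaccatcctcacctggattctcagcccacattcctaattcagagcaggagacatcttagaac
Cd160, second start, chr3:96814522-96814771, minus strand: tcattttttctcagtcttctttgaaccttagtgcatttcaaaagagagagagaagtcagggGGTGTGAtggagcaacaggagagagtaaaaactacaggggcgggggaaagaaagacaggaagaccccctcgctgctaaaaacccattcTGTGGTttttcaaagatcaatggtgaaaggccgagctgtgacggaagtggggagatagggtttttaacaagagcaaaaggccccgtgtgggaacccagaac
Klrc1, chr6:129678974-129679223, minus strand: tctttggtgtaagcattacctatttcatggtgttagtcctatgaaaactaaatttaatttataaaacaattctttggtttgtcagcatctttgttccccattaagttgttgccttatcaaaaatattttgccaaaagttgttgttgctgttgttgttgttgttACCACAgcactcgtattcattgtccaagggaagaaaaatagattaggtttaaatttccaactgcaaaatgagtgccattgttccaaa
Gzma, chr13:113100982-113101231, minus strand: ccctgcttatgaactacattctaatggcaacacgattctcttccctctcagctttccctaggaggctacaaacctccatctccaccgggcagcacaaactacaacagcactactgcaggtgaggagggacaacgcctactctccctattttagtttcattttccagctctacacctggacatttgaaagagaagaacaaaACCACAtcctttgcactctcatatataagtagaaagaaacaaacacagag
The RUNX letters lay within 76 bases of the first start of Cd160 and 50 bases of that of Gzma. They were found in 14.05% of the 32851 promoter windows of this length, and the T-box letters in 3.33%. The promoter table held 7 start sites for 5 of the 8 genes. The RUNX letters were also present for Klrk1 and for 1 start of Klre1, and were absent from the windows of Fcer1g and Cd8a. A match describes letters only.

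On chromosome 6 the order of neighbours was Klre1, Klrd1, Klrk1, Klrc3, Klrc2 and Klrc1. Klrc2 and Klrc3 are close copies of Klrc1, so reads could be split among them and counts of Klrc1 are uncertain to that extent. Klrc2 reached 10 reads in 1 spleen cell and Klrc3 in no cell.

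Gene reads per kept cell ran from 171248 to 580400 in the small intestine (median 324546) and from 162801 to 622997 in the spleen (median 353700). Expression is given as CPM, the reads of a gene scaled to 1000000 gene reads of a cell. A cell was counted as positive for a gene at 10 reads or more, which is 30.8 CPM at the median depth of the small intestine. Each tissue is 1 sample without a replicate, so no p-value is given. Intervals after a share are 95% exact (Clopper-Pearson) binomial and cover counting error only. Where no cell was positive, the limit given is 3 cells over the number of cells, a different rule. All kept cells were positive for Cd3e, and Cd4 in 99.3% (small intestine) and 98.5% (spleen). Of the markers read for NK cells, Ncr1 (NKp46) was positive in no small intestine cell (a share of up to 2.19% is allowed by that). Klrb1c (NK1.1) and Eomes were positive in 1 each. In the spleen, 1 cell was positive for Ncr1, 3 for Klrb1c and 13 for Eomes. Eomes does not mark NK cells alone, since the paper names it among factors in the development of IL-10-producing Foxp3-negative CD4+ T cells.

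NK receptor transcripts were found in more cells of the small intestine than of the spleen, and Cd160 and Klrd1 were the genes with shares apart from all 3 spleen sets. At least 1 of the 8 genes was positive in 67 small intestine cells (48.9%, 40.3% to 57.6%) and in 18.05%, 22.8% and 17.2% of the cells of the spleen sets (78 of 400 cells, 19.5%, 15.7% to 23.7%). A small intestine cell held 0.693 of the 8 genes on average (SD over cells 0.854) and a spleen cell 0.255 (SD 0.592). More than 1 of them was positive in 22 small intestine cells (16.1%, 10.3% to 23.3%) and 18 spleen cells (4.50%, 2.69% to 7.02%), with at most 4 in a cell. Thinned to 200000 reads per cell, which left out 5 small intestine and 23 spleen cells, the shares with any of the genes were 47.7% and 18.6%. The 67 small intestine cells with a receptor were all positive for Cd3e, as was every kept cell, and 66 were for Cd4. In the spleen sets, Cd4 was positive in 22 of 24, 33 of 33 and 21 of 21 cells with a receptor. Since nearly all kept cells carried both genes, this does not set the cells with a receptor apart.

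**Figure D1:**
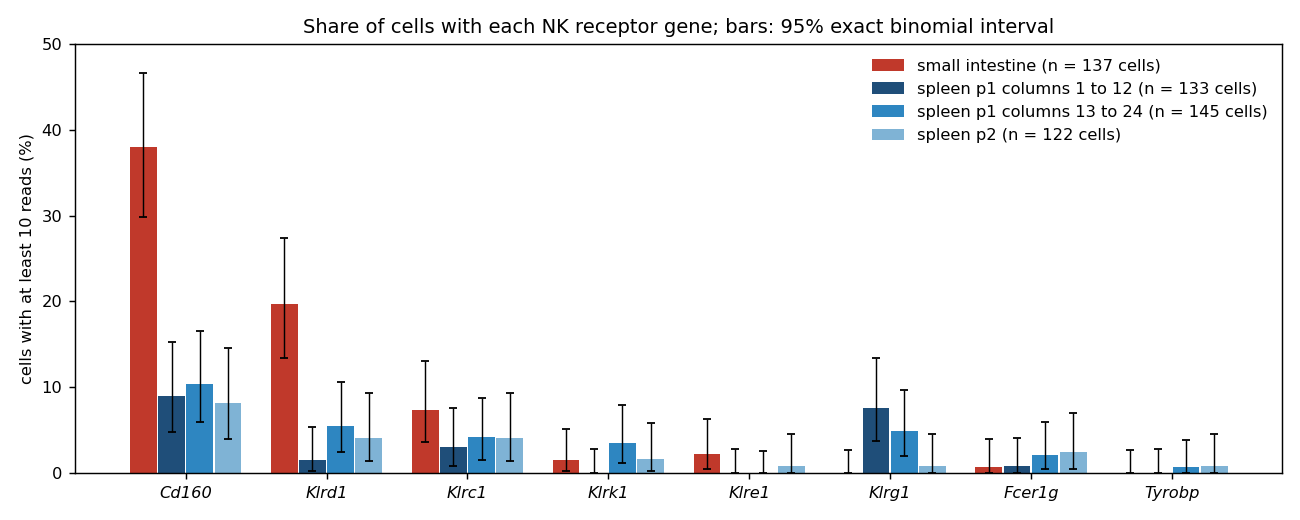
Share of cells (vertical axis, percent) with at least 10 reads of each of the 8 genes in the small intestine and the 3 spleen well sets, with 95% exact binomial intervals that cover counting error only. Cd160 (37.96%) and Klrd1 (19.7%) have small intestine intervals above those of all 3 spleen sets, while Klrg1 has no positive small intestine cell.

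By mean CPM, 4 of the 8 genes (Cd160, Klrd1, Klrc1 and Klre1) lay above all 3 spleen sets in the small intestine, as did 26.4% of the 11866 genes with a mean of at least 1 CPM in either tissue. Below all 3 sets were 3 of the 8 (Klrg1, Fcer1g and Tyrobp), against 40.9% of genes, and Klrk1 lay within their range. The places of Klre1, Fcer1g and Tyrobp rested on few cells. They were positive in 3, 1 and 0 small intestine cells and in 1, 7 and 2 spleen cells. The log2 ratio of (mean CPM + 1), small intestine over spleen, was at least 1 for 3 of the 8, against 11.2% of genes. It was -1 or less for 3 of the 8, against 20.6% of genes. With genes under 10 CPM in both tissues left out, the background shares were 8.26% higher, 17.4% lower, 25.3% above and 44.7% below, and with no filter 5.55%, 10.2%, 19.4% and 21.6%. The median log2 ratio was 0.29 over the 8 genes, all of which passed the filter, and -0.22 over all 11866.

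Cd160 was the most widespread of the 8 in both tissues. It averaged 292.3 CPM in small intestine cells, against 46.8, 38.6 and 34 CPM in the spleen sets. It was positive in 52 small intestine cells (37.96%, 29.8% to 46.6%), whose levels ran from 91.7 over a median of 414.3 to 4077 CPM. In the spleen sets 12, 15 and 10 cells were positive (9.02%, 10.3% and 8.20%), at 47.1 over 254.9 to 2996 CPM. Positive cells of the tissues thus overlapped in level, and the sets differed in how many cells were positive. The log2 ratio was 2.84, and 2.60 to 3.10 over 12 alternatives.

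Klrd1, the CD94 gene, averaged 131.8 CPM in small intestine cells, against 3.24, 22.4 and 18.5 CPM in the spleen sets. It was positive in 27 small intestine cells (19.7%, 13.4% to 27.4%), at 80.9 over a median of 256.7 to 3437 CPM. In the spleen sets 2, 8 and 5 cells were positive (1.504%, 5.52% and 4.10%), at 37.5 over 180.8 to 1783 CPM. The small intestine interval lay above that of each spleen set. The log2 ratio was 3.07, and 2.50 to 4.97 over the alternatives, the highest against columns 1 to 12 of p1, where 1 cell held 88.6% of the reads of the gene.

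Klrc1, the NKG2A gene, separated the tissues less. It averaged 22.1 CPM in small intestine cells, against 5.23, 13.1 and 21.4 CPM in the spleen sets, so that spleen cells of p2 were close to the small intestine cells of the same plate. It was positive in 10 small intestine cells (7.30%, 3.56% to 13.01%), at 135.5 over a median of 267.6 to 581.3 CPM. In the spleen sets 4, 6 and 5 cells were positive (3.01%, 4.14% and 4.10%), at 59.8 over 356.2 to 1028 CPM, and the intervals overlapped that of the small intestine. The log2 ratio was 0.72, and 0.04 to 1.89 over the alternatives.

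Klrk1 and Klre1 were rare. Klrk1 (NKG2D) was positive in 2 small intestine cells, at 54.2 and 669 CPM, and in 0, 5 and 2 cells of the spleen sets, at 72.98 to 919 CPM. All 9 of these cells were positive for Hcst, the DAP10 adaptor of NKG2D. Hcst was positive in most cells of every set, as given below, so this does not set Klrk1+ cells apart. The log2 ratio of Klrk1 was -0.14, but -1.72 without the top cell of each tissue and 2.65 against columns 1 to 12 of p1, so its direction was not fixed. Klre1 was positive in 3 small intestine cells, at 35.3, 291.2 and 341.97 CPM, and in 1 spleen cell of p2, at 54.1 CPM. All 4 were also positive for Klrc1. The spleen cell with Klre1 also had reads of Klrb1c, the NK1.1 gene, beside Cd3e and Cd4.

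Klrg1 went the other way. No read was counted in any kept small intestine cell, which allows a share of up to 2.19%. In the spleen sets 10, 7 and 1 cells were positive (7.52%, 4.83% and 0.820%), with means of 69.4, 20.1 and 0.466 CPM, and positive cells ran from 40.5 over 376.03 to 2725 CPM. The pooled spleen cells held 4193 reads of Klrg1, of which 2 cells held 37.6%. Reads without molecular identifiers that lie in few cells give no bound on a fold change, so none is stated. In p2, 1 cell held 96.4% of the 28 reads. By exact intervals, the small intestine share (0% to 2.66%) was apart only from that of columns 1 to 12 of p1 (3.66% to 13.4%). It overlapped those of columns 13 to 24 (1.96% to 9.69%) and of p2 (0.0208% to 4.48%), the shared plate. Against these sets a difference in the share of cells was not detectable at this depth. The spleen sets also differed in Foxp3, which was positive in 54.1%, 13.1% and 4.10% of their cells and in 3.65% of small intestine cells, and its part in the order of the sets was not tested.

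The adaptors Fcer1g and Tyrobp were found in few cells of either tissue. Fcer1g was positive in 1 small intestine cell, at 50.2 CPM, and in 1, 3 and 3 cells of the spleen sets, at 29.8 to 236.96 CPM. Tyrobp was positive in no small intestine cell and in 2 spleen cells, at 242.6 and 274.6 CPM. The 1 spleen cell positive for both had 35, 49 and 27 reads of the macrophage genes C1qb, C1qc and Csf1r. The small intestine cell with Fcer1g was also positive for Klrc1 (93 reads) and Cd160 (370 reads). No kept cell positive for an adaptor was positive for Klrd1 or Klrk1. These were positive in only 3.75% and 1.75% of all spleen cells, so with so few adaptor cells their absence shows nothing. Hcst, by contrast, was positive in 90.5% of small intestine cells and in 95.5%, 93.1% and 89.3% of the cells of the spleen sets.

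**Figure D2:**
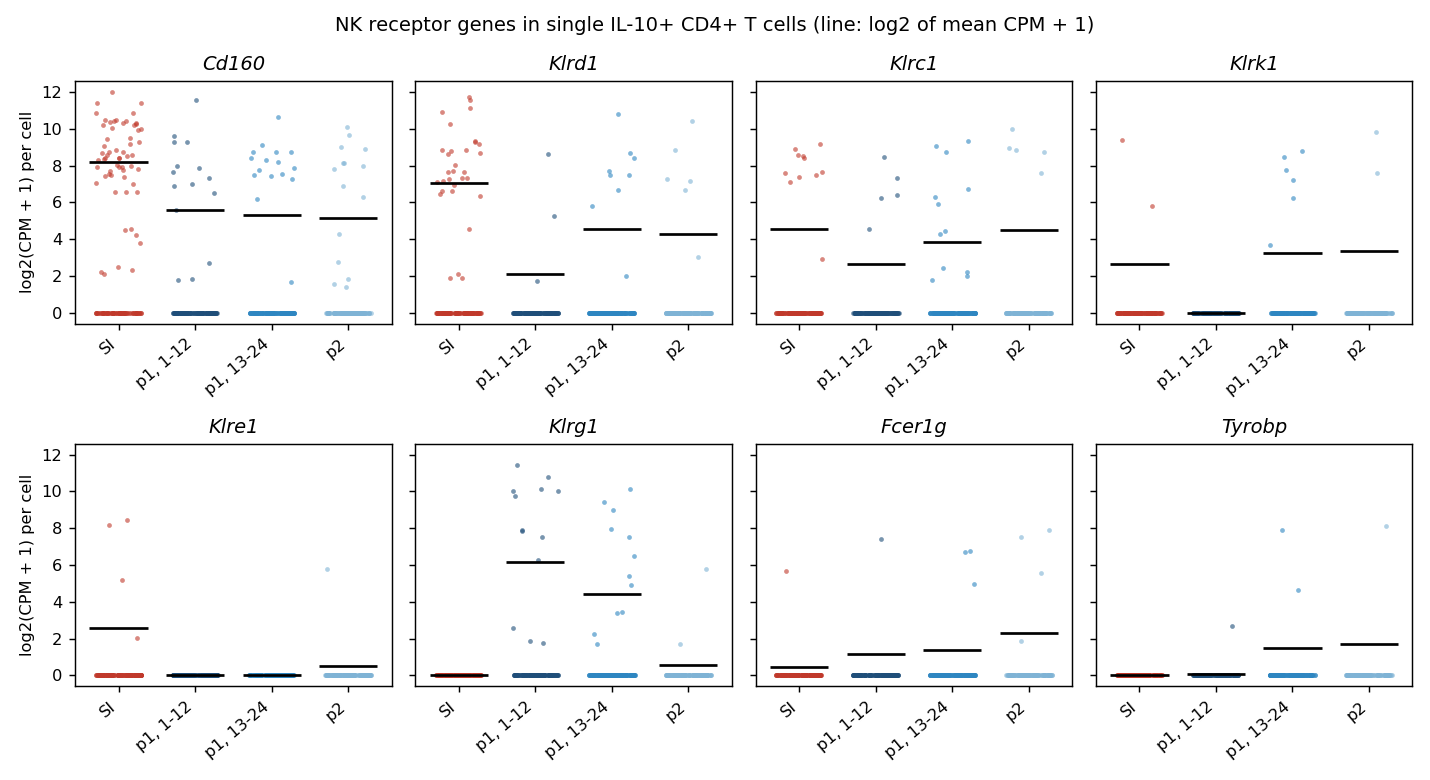
Expression of the 8 genes in each kept cell, as log2 of CPM + 1 (vertical axis), by set (SI, small intestine; p1 and p2, spleen plates with well columns); each point is a cell and each line the log2 of the mean CPM + 1. Most cells are at 0 for every gene, and positive Cd160 and Klrd1 cells of the tissues overlap in level. Positive Klrg1 cells have medians of 937, 249.5 and 54.6 CPM in the spleen sets.

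Levels of different genes were compared after division by exon length. Per kilobase, the mean in the small intestine was 110.7 CPM for Cd160, 102.9 for Klrd1, 11.1 for Klrc1, 1.40 for Klre1, 0.735 for Klrk1 and 0.419 for Fcer1g. On this scale Cd160 and Klrd1 stood close together and above Klrc1. In the pooled spleen the values per kilobase were 21.6 CPM for Klrg1, 15.1 for Cd160, 11.6 for Klrd1, 6.56 for Klrc1, 2.51 for Fcer1g, 2.05 for Tyrobp, 0.823 for Klrk1 and 0.0387 for Klre1. Klrg1 was the highest only in columns 1 to 12 of p1, at 49.1 CPM per kilobase. It was at 14.2 in columns 13 to 24, under Klrd1 (17.5) and Cd160 (14.6), and at 0.330 in p2, under Klrd1 (14.4), Cd160 (12.9) and Klrc1 (10.8). Hcst was higher than all of them, at 332.2 CPM per kilobase in the small intestine.

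CD94 and NKG2A act as a pair, and the share of Klrc1 was read in cells with and without Klrd1. Of 27 Klrd1+ small intestine cells 3 were positive for Klrc1 (11.1%, 2.35% to 29.2%), as were 7 of 110 Klrd1- cells (6.36%, 2.60% to 12.7%), and these intervals overlapped. Of the 27, 23 had no read of Klrc1, Klrc2, Klrc3 or Klre1. Of 15 Klrd1+ spleen cells 7 were positive for Klrc1 (46.7%, 21.3% to 73.4%), made up of 1 of 2, 3 of 8 and 3 of 5 cells of the sets, against 2.08% of Klrd1- spleen cells (0.901% to 4.05%), and these intervals were apart. The intervals of Klrd1+ cells overlapped between the tissues. From the other side, 3 of 10 Klrc1+ small intestine cells and 7 of 15 Klrc1+ spleen cells were positive for Klrd1. Cd160 and Klrd1 were both positive in 15 small intestine cells, and Cd160 was the only one of the 8 in 33. In the spleen, 4 of 7 Klrk1+ cells were also Klrd1+.

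**Figure D3:**
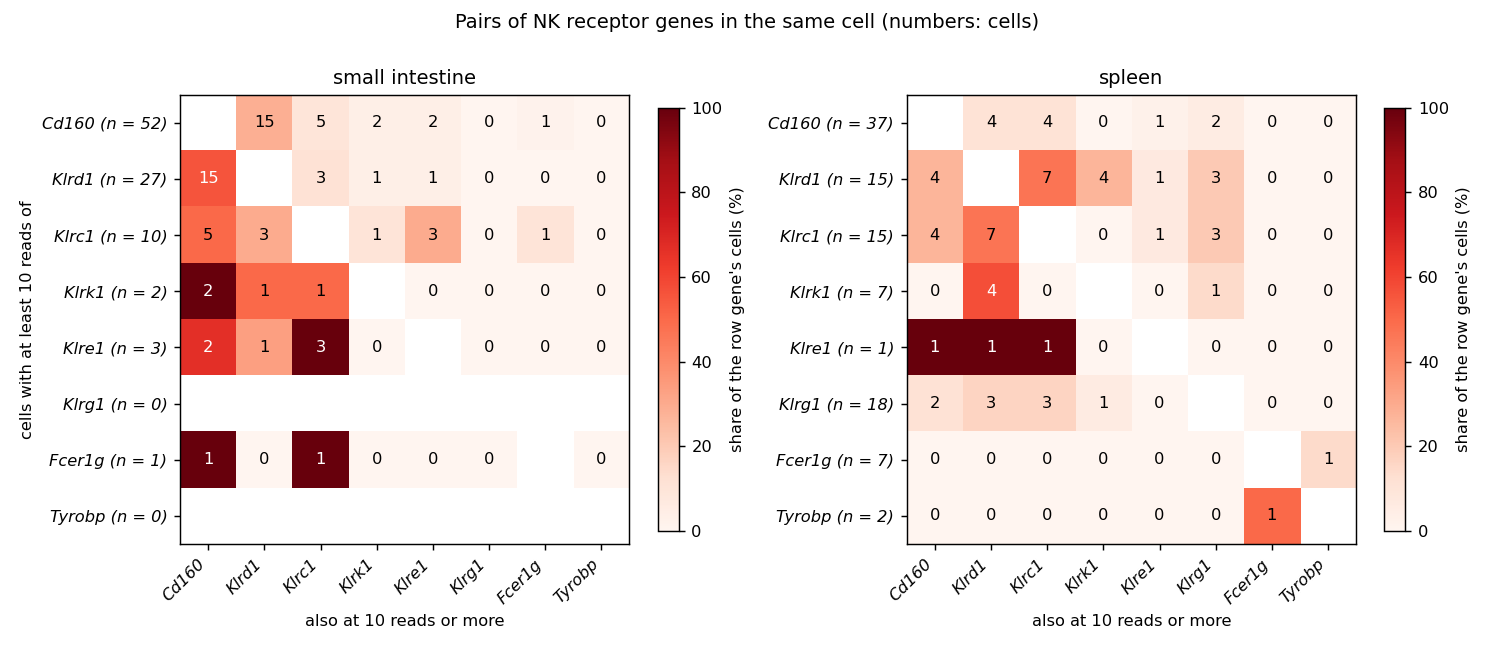
Pairs of the 8 genes in the same cell, in the small intestine and the pooled spleen; rows are cells positive for a gene, numbers the cells also positive for the column gene, and colour their share in percent. The fullest pair is Cd160 with Klrd1 (15 cells) in the small intestine and Klrc1 with Klrd1 (7 cells) in the spleen.

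Gzma averaged 36732 CPM in small intestine cells, where 86.1% of cells were positive, and 18.9, 6.45 and 82.7 CPM in the spleen sets, where 7, 5 and 10 cells were. The other 19 small intestine cells all had 1 to 9 reads of Gzma, as did 92 spleen cells of p2, the shared plate, against 2 and 7 cells of the p1 sets. As for every gene, reads below 10 were not counted as expression, and the source of these low reads was not tested. In the small intestine, 63 Gzma+ cells had any of the 8 genes (53.4%, 43.98% to 62.6%), and 4 of the 19 others did (21.1%, 6.05% to 45.6%). Cd160 was positive in 50 Gzma+ cells (42.4%, 33.3% to 51.8%) and in 2 of 19 others (10.5%, 1.30% to 33.1%), and these intervals were barely apart. Klrd1 was positive in 25 Gzma+ cells (21.2%) and 2 others (10.5%), and Klrc1 in 10 (8.47%) and 0, with overlapping intervals. With the limit for Gzma at 1000 CPM, Cd160 was positive in 46.7% of cells above it and 6.67% of those below. In the spleen, 7 of 22 Gzma+ cells had any of the 8 genes (31.8%, 13.9% to 54.9%) and 18.8% of the others, with overlapping intervals. By set the shares were 42.9% and 16.7%, 60% and 21.4%, and 10% and 17.9%, so that p2 went the other way from the p1 sets.

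Cd8a split the small intestine cells further. It was positive in 27 of them, at 212.7 over a median of 2152 to 6839 CPM, and in 1 spleen cell. Of the 27 cells, 26 were positive for Cd4 and 5 for Cd8b1, the partner chain on conventional CD8 T cells. Any of the 8 genes was found in 23 of the 27 (85.2%, 66.3% to 95.8%) and in 44 of the other 110 (40%, 30.8% to 49.8%). Cd160 was positive in 22 of 27 (81.5%, 61.9% to 93.7%) and 30 of 110 (27.3%, 19.2% to 36.6%), and for both measures the intervals were apart. Klrd1 was positive in 10 of 27 (37.04%, 19.4% to 57.6%) and 17 of 110 (15.5%, 9.27% to 23.6%), and Klrc1 in 5 of 27 (18.5%) and 5 of 110 (4.55%), with overlapping intervals. The median depth was 338019 reads in Cd8a+ and 322980 reads in Cd8a- cells.

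**Figure D4:**
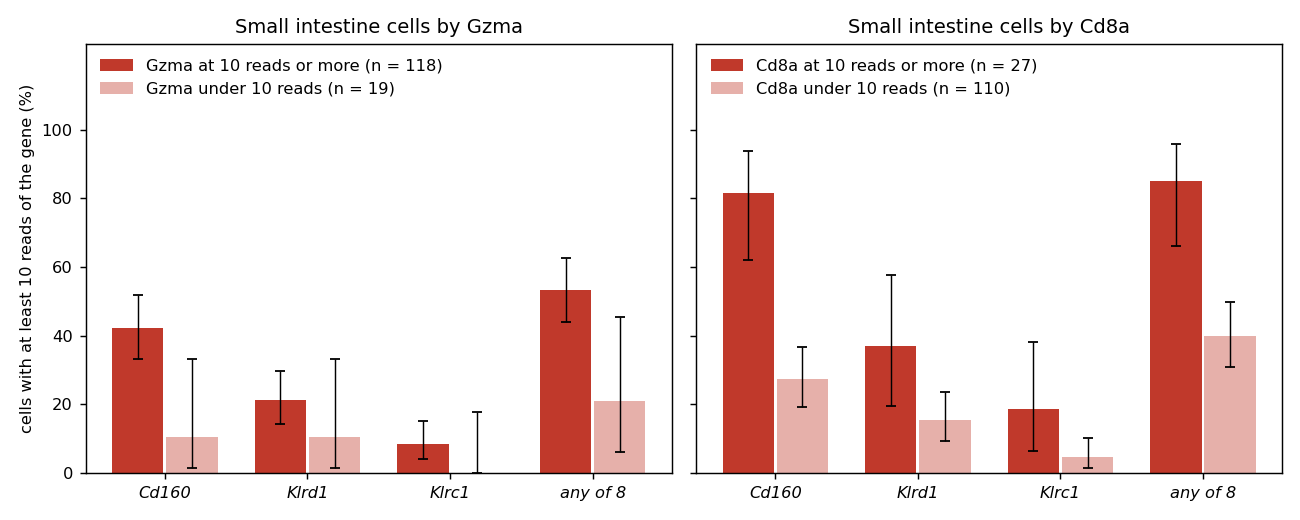
Share of small intestine cells (vertical axis, percent) with at least 10 reads of Cd160, Klrd1, Klrc1 or any of the 8 genes, among cells with and without at least 10 reads of Gzma and of Cd8a; lines are 95% exact binomial intervals. Cd160 is in 81.5% of cells with Cd8a and in 27.3% of the others.

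Across the kept small intestine cells, which share a plate, the genes most like Cd160 among 6603 ranked genes were Cd7, a receptor of T and NK cells (Spearman rho 0.47), Cd8a (0.45) and Ctsw, a protease of cytotoxic cells (0.41). Cd7 was positive in 45 of 52 Cd160+ cells (86.5%) and 43 of 85 others (50.6%), and Ctsw in 44 (84.6%) and 41 (48.2%). The genes most like Klrd1 were Lmtk2 (0.37), Swap70 (0.32) and Gsn (0.31), and those most like Klrc1 were Pstk (0.38), Pigyl (0.36) and Nat2 (0.35). These low values describe sparse counts.

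Small intestine cells with Cd160 were more often positive for some cytotoxic genes. Of 10 genes of the cytotoxic list at 10 CPM or more, Gzmb, Gzmk and Ctsw had a share interval above that of Cd160- cells, and none lay below. Over all 80 list genes compared, 8 lay above and 0 below. Gzmk, a granzyme, was positive in 33 of 52 Cd160+ cells (63.5%, 48.96% to 76.4%) and 32 of 85 others (37.6%, 27.4% to 48.8%). Itgae, the CD103 chain that binds epithelial E-cadherin, was positive in 42 (80.8%) and 40 (47.1%). With Klrd1, 3 of the 80 list genes lay above (Cd244, Itga1 and Lcp2) and 0 below, and of the 10 cytotoxic genes 0 lay above. Cd244, a SLAM family NK receptor, was positive in 12 of 27 Klrd1+ cells (44.4%) and 16 of 110 others (14.5%). Itga1, a collagen-binding integrin chain, was positive in 20 (74.1%) and 38 (34.5%). Prf1 (perforin) was positive in 19 of 27 Klrd1+ cells (70.4%, 49.8% to 86.2%) and 48 of 110 others (43.6%, 34.2% to 53.4%), which overlap. Median depths with and without Cd160 were 323266 and 327624 reads.

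In the pooled spleen, cells with these receptors were more often positive for several of the same list. Gzmb was positive in 20 of 37 Cd160+ cells (54.1%, 36.9% to 70.5%) and in 31.4% of the others (26.7% to 36.5%). It was positive in 11 of 15 Klrd1+ cells (73.3%, 44.9% to 92.2%) and in 31.9% of the others (27.3% to 36.9%). By set, the shares with Gzmb were 66.7%, 53.3% and 40% in Cd160+ cells and 37.2%, 31.5% and 25% in the others. Nkg7, a granule membrane gene, was positive in 14 of 15 Klrd1+ cells (93.3%) and 54.8% of the others, and Prf1 in 6 of 15 (40%, 16.3% to 67.7%) and 10.1% (7.30% to 13.6%). The Prf1 cells were 0 of 2, 5 of 8 and 1 of 5 Klrd1+ cells of the sets. In the pooled spleen, 5 of the 10 cytotoxic genes had share intervals above with Cd160 (Gzmb, Prf1, Nkg7, Ctsw and Fasl). The counts were 5 with Klrd1 (Gzmb, Prf1, Nkg7, Ctsw and Serpinb9), 4 with Klrc1 and 1 with Klrg1 (Gzmb), and none lay below. Over all 71 list genes compared, 9 lay above with Cd160, 8 with Klrd1, 6 with Klrc1 and 3 with Klrg1. Below lay 0 with Cd160, 0 with Klrd1, 1 with Klrc1 and 1 with Klrg1 (Slamf6 for both). Within the sets, where few cells were positive, most of these calls were absent. Of all 12 cytotoxic list genes, 0, 0 and 1 (Fasl) lay above with Cd160 and 0, 1 (Prf1) and 1 (Nkg7) with Klrd1. With Klrc1 they were 0, 2 and 2, and with Klrg1 0 in each set. Among spleen cells under 10 reads of Foxp3, Gzmb was positive in 73.3% of Klrd1+ and 26.6% of Klrd1- cells. In these cells the 5 genes stayed above with Klrd1, while with Cd160 the intervals for Gzmb (50%, 29.9% to 70.1%, against 26.98%, 21.9% to 32.6%) and Nkg7 (73.1%, 52.2% to 88.4%, against 50.7%, 44.7% to 56.7%) overlapped, and no gene stayed above with Klrg1 (Gzmb 44.4%, 13.7% to 78.8%, against 28.5%). Of Klrd1+ spleen cells 2 of 15 were positive for Ncr1, Klrb1c or Eomes, against 3.90% of the others, and of Cd160+ cells 3 of 37, against 3.86%. For a wider list of NK and innate lymphoid cell markers these were 4 of 15 against 6.75%, and 7 of 37 against 6.34%. A selection without cells positive for Ncr1, Klrb1c or Eomes was, like that on Foxp3, added after values had been seen. It removed mostly Eomes+ cells, so it cannot show what NK cells would contribute. In it the same 5 genes stayed above with Klrd1, while Prf1 and Ctsw were no longer above with Cd160.

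**Figure D5:**
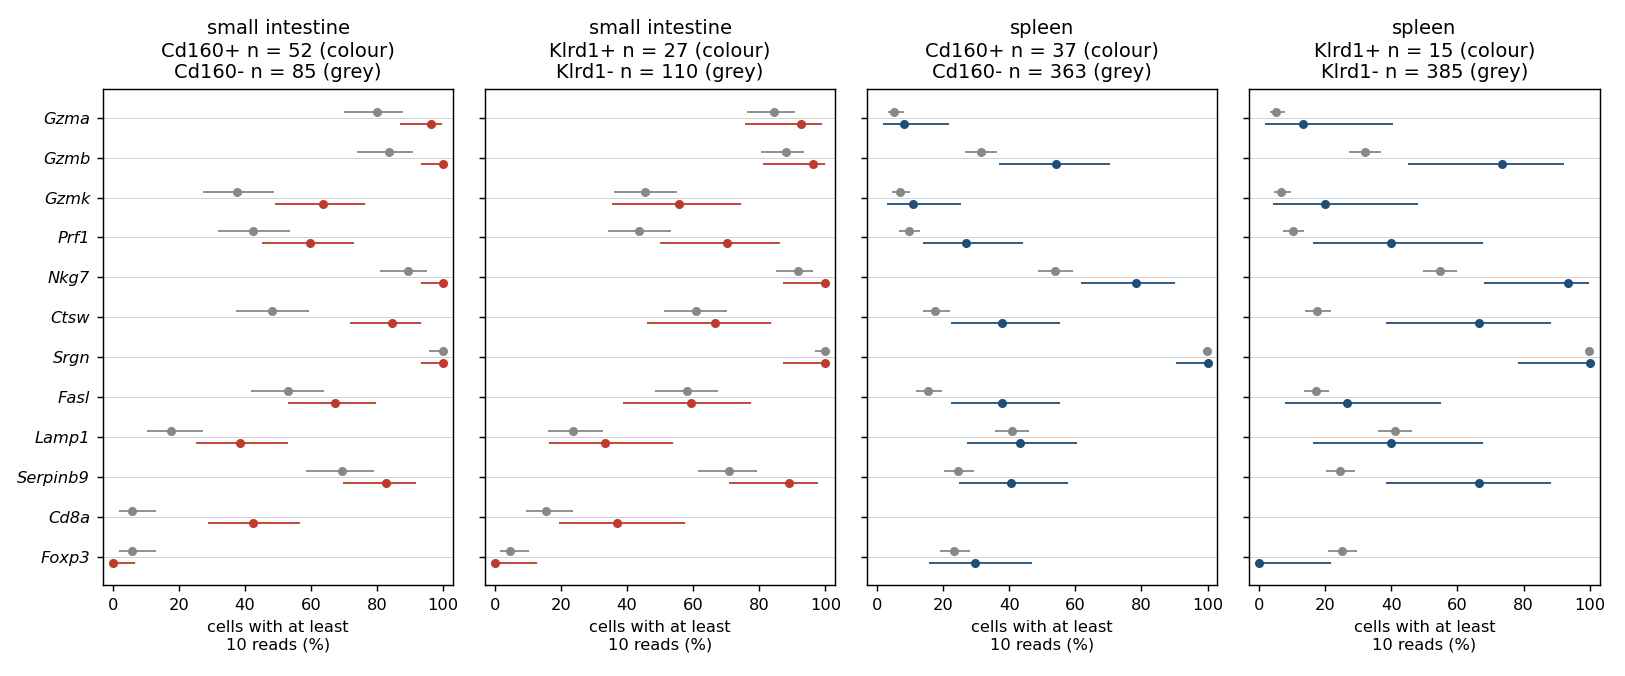
Share of cells (horizontal axis, percent) with at least 10 reads of cytotoxic genes, Cd8a and Foxp3, in cells with (colour) and without (grey) Cd160 or Klrd1, in the small intestine and the pooled spleen; lines are 95% exact binomial intervals, and genes under 10 CPM in a tissue are not drawn. In the spleen Gzmb, Prf1, Nkg7 and Ctsw lie to the right in cells with either receptor.

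Foxp3 was added as a partner after values had been seen, and no receptor share was apart between Foxp3+ cells and the others. None of 96 Foxp3+ spleen cells was positive for Klrd1, which allows up to 3.13%, against 15 of the other cells (4.93%, 2.79% to 8.01%). By set these were 0 of 72 and 2 of 61, 0 of 19 and 6.35%, and 0 of 5 and 4.27%, so that most Foxp3+ cells lay in the set where Klrd1 was rarest. Klrg1 was positive in 9 of 96 Foxp3+ cells (9.38%, 4.38% to 17.1%) and 9 of the others (2.96%, 1.36% to 5.55%). Cd160 was positive in 11.46% and 8.55%, and Klrc1 in 3.13% and 3.95%. Within columns 1 to 12 of p1, where most Foxp3+ cells lay, Klrg1 was positive in 8 of 72 and 2 of 61 cells. The intervals overlapped in all the Foxp3 comparisons given.

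Other genes of the pathway lay in both directions. Genes at 10 CPM or more in either tissue, the spleen pooled, gave a background. Of these, 8.26% had a log2 ratio of at least 1 and 17.4% of -1 or less. The counts that follow use a wider filter, 10 CPM in any set, so the background is not fully like them. Zbtb16, at 5.24 CPM in the pooled spleen, passed only the wider filter. Of 23 further lectin-like receptor and ligand genes with a row, 14 had no read in any kept cell, and 3 reached 10 CPM in a set. Clec2i, a ligand of the NKR-P1 family, was at 0 in the small intestine and at 30.2, 43.9 and 45.9 CPM in the spleen sets. Klrb1b was at 23.01 CPM in the small intestine, from 1 cell, and at 0 in the spleen, and Klrb1f was at 13.2 CPM against 0.641, 5.59 and 7.66 CPM. Of 10 other NK receptor genes at that level, 6 had a log2 ratio of at least 1, among them Cd244 (96.3 CPM against at most 0.0944), Cd7 (772 against at most 29.8) and Kit (24.8 against at most 0.211), and 3 had a ratio of -1 or less, among them Slamf6 (45.8 against 484.9 to 804 CPM). Of 16 adaptor and signalling genes, Plcg2, Sh2d2a and Inpp5d had log2 ratios of 4.78, 1.17 and 1.04, and Ptpn6, a phosphatase of inhibitory receptors, of -1.06. Of 5 ligand genes only H60b, an NKG2D ligand, reached 1, at 1.88, while H2-K1, H2-D1 and Tnfrsf14 were at -0.44, -0.34 and 0.16. Of 10 cytotoxic genes, 7 had a log2 ratio of at least 1, among them Gzma (10.04), Gzmb (3.70), Gzmk (2.87) and Serpinb9 (2.77). Of 14 transcription factors 5 were at 1 or more, among them Bhlhe40 (3.26) and Id2 (1.74), and 4 at -1 or less, among them Ikzf2 (-1.99) and Zbtb16 (-2.55). The value of Zbtb16 rested on columns 13 to 24 of p1 (log2 ratio -3.83, mean 14.2 CPM), and against the other sets it was 0.09 and -0.26. Of 12 genes of intraepithelial lymphocytes 8 were at 1 or more, among them Itga1 (7.49), Gpr34 (7.10), Cd244 (6.54) and Cd8a (5.62).

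Markers of other cells were read beside these results. Without cells positive for Ncr1, Klrb1c or Eomes, 48.9% of small intestine and 18.8% of spleen cells had any of the 8 genes. Of 14 myeloid genes, 10 were positive in no small intestine cell and 5 to 8 in no cell of a spleen set. Leaving aside Cst3 and Cd68, a myeloid marker was positive in 7 of 37 Cd160+ spleen cells and 3.58% of the others, and in 2 of 52 and 0 of 85 small intestine cells. Its part in the spleen results for Cd160 was not tested beyond the cell counts. An epithelial marker was positive in 7 of 27 Klrd1+ small intestine cells and 10% of the others, and in 7 of 52 Cd160+ cells and 12.9%. In the spleen it was positive in 6 of 18 Klrg1+ cells and 13.9% of the others. The spleen counts were 2 of 15 and 14.8% for Klrd1, and 4 of 37 and 15.2% for Cd160. A B cell marker other than Cd79b was positive in 1 of 37 Cd160+ spleen cells and 0.551% of the others. The part of these markers was not tested. Of 9 gamma delta T cell genes only Sox13 had a row, so that lineage was not checked.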

How the data were processed

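The authors aligned SMART-seq2 reads with STAR, to mm10 per the labels and to an older build in the study's methods, so coordinates are given only from the reference. The deposited tables hold raw read counts per gene and cell; the counting tool is not given in the sources used here. CPM, shares of cells and ratios were computed from these counts without the reporter row (0.00979% of reads), with a pseudocount of 1 CPM. Cells under 3 deviations (MAD) from their tissue's median in reads or genes were removed, as were those that cyclone (scran 1.30.0) put in S or G2M. Each tissue is 1 sample with no animal named, so no test was run. Exon lengths come from the reference annotation. Alternatives changed the detection limit, depth, cells, spleen set, pseudocount and scaling (edgeR 4.0.16 TMM, DESeq2 1.42.0 size factors). Computations were tested on simulated data. Named were the 8 genes, Gzma, Cd8a, the 4 largest ratios of each list and the 3 genes most like a receptor; genes compared by receptor state were named after their values were seen. Members and lists were chosen with earlier results of these data known. A result that needs an item withheld for evaluation is not reported here.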

Additional observations from a re-analysis of the deposited data

Results flagged for a closer look

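Cells put in S or G2M were kept out of the comparisons above, and they are listed where more than 3 of them were positive for a gene, which says only that the gene was detected there. Among 34 such small intestine cells, where 3 cells are 8.82%, 10 or more reads were found in 20.6% for Klrc1 (interval 8.70% to 37.9%), 32.4% for Klrd1 (17.4% to 50.5%) and 41.2% for Cd160 (24.6% to 59.3%). Each interval overlaps that of the cells called G1. Klrk1 was positive in 5.88% of these cells, and Klrg1 and Klre1 in none. Among such spleen cells, where 3 cells are 2.10%, the shares were 4.20% for Klrc1, 5.59% for Klrd1, 6.99% for Klrg1, 9.09% for Cd160 and 3.50% for Fcer1g. In the small intestine, 1 cell of this kind held Fcer1g at 1359 CPM and Tyrobp at 40.7 CPM, with 11490 reads of Gzma, 47 reads of Cd4 and reads of Klrd1 and Cd160.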

How the results depend on the processing

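The count of 4 genes above all 3 spleen sets was 3 to 5 over 6 alternatives. Small intestine cells with any of the genes made up 40.96% to 54.7%, with 0.566 to 0.796 genes per cell. At 1 read in place of 10, 25.5% of spleen cells had a gene and a spleen cell held 0.335 of the 8, and without cells positive for a myeloid or B cell marker it held 0.195. Of 96 log2 ratios 81 kept their side of a 1 log2 limit. Fcer1g turned from -1.22 to 1.43 with S and G2M cells kept and to 0.86 with all cells, and Klrg1 was at -0.55 against p2. The sign of Klrk1 changed with scaling, from -0.14 to 0.02 with DESeq2 factors. Of the shares, 3 of 120 per gene and 2 beside Gzma or Cd8a left their intervals. Leaving out cells with a myeloid or B cell marker other than Cst3, Cd68 and Cd79b was chosen after seeing the data. Causes of these moves were not tested. No paired analysis was possible because replicate numbers only name cells and no animal is given. A gene with no positive small intestine cell may be in up to 2.19% of them.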
